A study of Mus musculus with 30 samples.

Results

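The 44 genes described here carry out or signal the repair of DNA double-strand breaks. They were taken as a named list of genes for homologous recombination, end joining, break signalling and the checkpoint, and each symbol was matched to 1 Ensembl gene. Of the 44, 43 had a called m6A bin in at least 1 peak list, among 13765 genes with a called bin in all. Only Xrcc4, a partner of DNA ligase IV, had none in any list. By role, 13 genes belong to break signalling and chromatin, 14 to resection and homologous recombination, 8 to the checkpoint and 9 to end joining.

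The data come from m6A-seq of mouse embryonic stem cells of strain C57BL/6, grown with serum and LIF on gelatin. In m6A-seq, fragments of messenger RNA that carry N6-methyladenosine are pulled down with an antibody and sequenced. Of the 5 lines, 3 were Mettl14 knockout cells with METTL14 put back, as the 13RK mutant (KO+13RK), as the 5RK mutant (KO+5RK) or as the wild-type protein (KO+WT). The remaining lines were the knockout itself (KO) and wild-type cells (WT), and each line had 3 deposited peak lists, 1 per replicate of the immunoprecipitation. All 3 lines with METTL14 put back thus share the knockout background. By its title, the study concerns methylated arginines in the disordered tail of METTL14 and the role of m6A in DNA repair. The labels do not say whether a line is 1 clone or whether its replicates are separate cultures. The p-values therefore cover only the spread between lists, which may be technical.

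METTL14 and the catalytic subunit METTL3 form the complex that writes m6A on messenger RNA, often in long internal exons and around the stop codon. Double-strand breaks are sensed by the MRE11-RAD50-NBN complex and the kinase ATM, marked on chromatin by phosphorylated H2AX, and then either resected for homologous recombination or joined end to end. Embryonic stem cells divide fast, spend much of the cycle in S phase and lean on homologous recombination.

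A called bin is a 100-nt stretch of a gene that the authors listed as enriched by the antibody, at a deposited q below 0.05. Read depth per bin is unknown, so a missing call is not a missing methyl group. Transcript levels in the input libraries were not analysed here. In bulk RNA, fewer cells of a type, less RNA per cell and less methylation per RNA cannot be told apart from bin calls.

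The starts of the 3 genes for replication protein A, the trimer that coats single-stranded DNA after resection, are shown first, because called bins overlap them. The bin over the printed bases of Rpa2 was called in 1 KO list and in no other list. That of Rpa3 was called in 1 KO+13RK, 0 KO+5RK, 2 KO+WT, 3 KO and 1 WT list. That of Rpa1 was called in 1 KO+WT, 1 KO and 1 WT list. The first 30 bases from each start in RefSeq's table are given on the gene's strand in the build GRCm38.p6, and capitals mark the bases inside a called bin. For Rpa1 this start lies 71 nt inside the gene's span.
Rpa1, chr11:75348354-75348383, minus strand: gcgctcacgctgggggcGGATCGGCACGCA
Rpa2, chr4:132768360-132768389, plus strand: GAAGGCTGCCACGCCAGAGCGGCACAGAGT
Rpa3, chr6:8259112-8259141, minus strand: attttCTGCTTTCCTGCGGGTTGCGAGTGT
The letters GGAC, a form of the sequence in which METTL3 and METTL14 methylate adenosine, were absent from the first 50 bases of all 3 genes, and so was their complement GTCC. Over 32851 RefSeq gene starts, 18.9% of the first 50 bases held GGAC, 17.4% held GTCC and 33.3% held either. This describes the letters in these windows only. Of the 44 genes, 33 had such a window of 50 bases, and the 3 RPA genes were those with a called bin reaching into it.

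The number of called bins in the 44 genes differed between the lines. It was 54, 56 and 61 in the KO+13RK lists, 63, 73 and 66 in KO+5RK, 76, 90 and 83 in KO+WT, 48, 40 and 50 in KO, and 107, 123 and 116 in WT. The 5 lines did not overlap, with KO lowest, then KO+13RK, KO+5RK and KO+WT, and WT highest. The means were 57.0 ± 3.61 in KO+13RK, 67.3 ± 5.13 in KO+5RK, 83 ± 7.0 in KO+WT, 46.0 ± 5.29 in KO and 115 ± 8.02 in WT (SD, n = 3 each).

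The whole lists differed in the same order. They averaged 10105 bins in KO+13RK, 12298 in KO+5RK, 15206 in KO+WT, 7777 in KO and 22683 in WT. Relative to WT, the repair genes held 0.494 of the bins in KO+13RK, 0.584 in KO+5RK, 0.720 in KO+WT and 0.399 in KO. All genes together held 0.445 of the WT number in KO+13RK, 0.542 in KO+5RK, 0.670 in KO+WT and 0.343 in KO. When every list was cut to its 6328 bins with the smallest p, the repair genes held nearly equal numbers, 36.7 in KO+13RK, 37.7 in KO+5RK, 38.3 in KO+WT, 38.3 in KO and 39.3 in WT. The order of the lines was thus the order of list length. The repair genes' share of each list differed little, 0.565% in KO+13RK, 0.550% in KO+5RK, 0.547% in KO+WT, 0.605% in KO and 0.509% in WT.

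**Figure D1:**
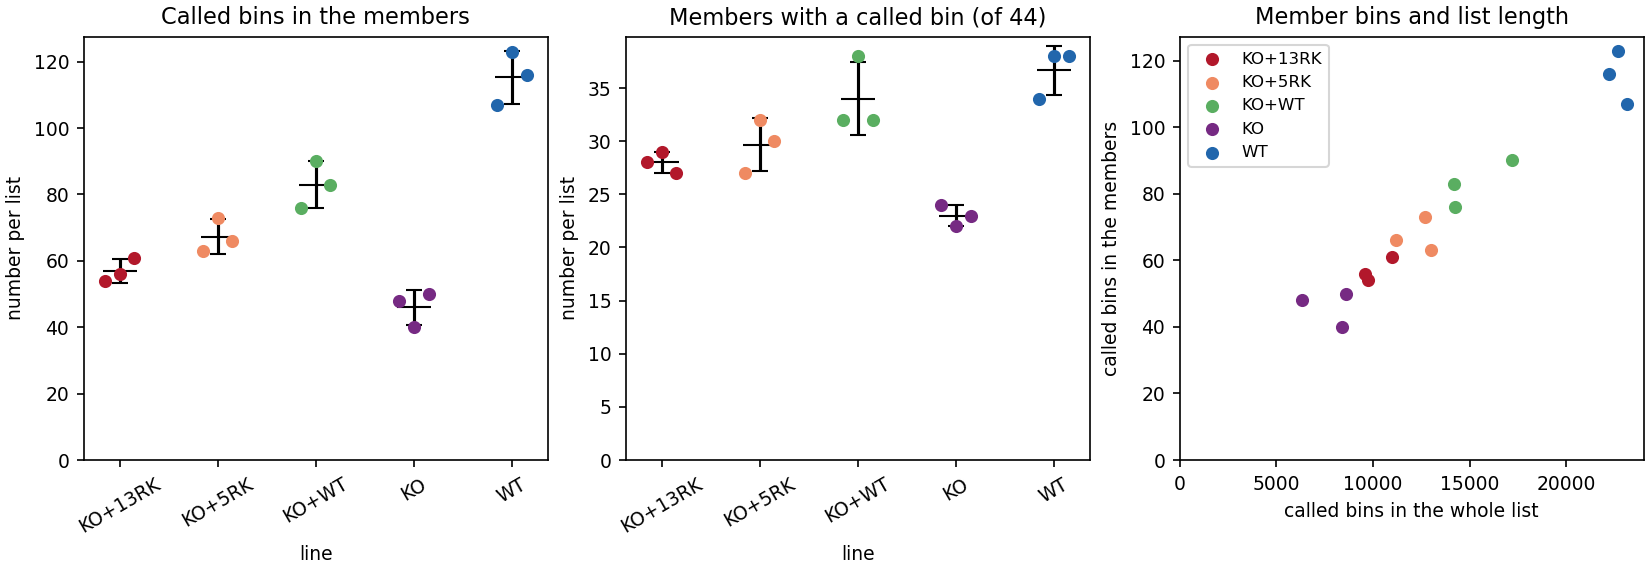
Called bins in the 44 genes (left), number of the 44 genes with a bin (middle) and called bins in the genes against bins in the whole list (right), for each of the 15 lists. Points are lists and bars are the mean and SD of 3; the KO lists hold 40 to 50 bins and the WT lists 107 to 123, and the number of bins rises with the length of the list.

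The mean number of the 44 genes with a bin was 28 ± 1.00 in KO+13RK, 29.7 ± 2.52 in KO+5RK, 34.0 ± 3.46 in KO+WT, 23.0 ± 1.00 in KO and 36.7 ± 2.31 in WT (SD, n = 3 each). Over all genes the mean number with a bin was 5274 in KO+13RK, 5893 in KO+5RK, 6540 in KO+WT, 4373 in KO and 7846 in WT. End joining genes had 6.67 ± 0.58 bins in KO+13RK, 9.67 ± 3.06 in KO+5RK, 12 ± 1.00 in KO+WT, 2.67 ± 0.58 in KO and 19.3 ± 2.52 in WT. Break signalling genes had 28 ± 1.00 bins in KO+13RK, 26.3 ± 3.51 in KO+5RK, 29.3 ± 4.04 in KO+WT, 20.0 ± 2.00 in KO and 41.0 ± 1.00 in WT. These sums by role are descriptions, and the difference between the roles was not tested.

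Genes for resection and homologous recombination had 13.7 ± 1.15 bins in KO+13RK, 16.7 ± 6.11 in KO+5RK, 28 ± 6.08 in KO+WT, 16.7 ± 7.09 in KO and 38 ± 4.36 in WT. In mean bins the mutant lines did not stand above KO for this role, where the KO lists varied widely. The genes of this role with a bin averaged 8.33 ± 1.15 in KO+13RK, 9.0 ± 2.65 in KO+5RK and 7.33 ± 1.53 in KO. These differences were not tested. Checkpoint genes had 8.67 ± 1.53 bins in KO+13RK, 14.7 ± 3.06 in KO+5RK, 13.7 ± 0.58 in KO+WT, 6.67 ± 3.06 in KO and 17.0 ± 3.61 in WT. Here KO+5RK reached the range of KO+WT and KO+13RK did not.

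**Figure D2:**
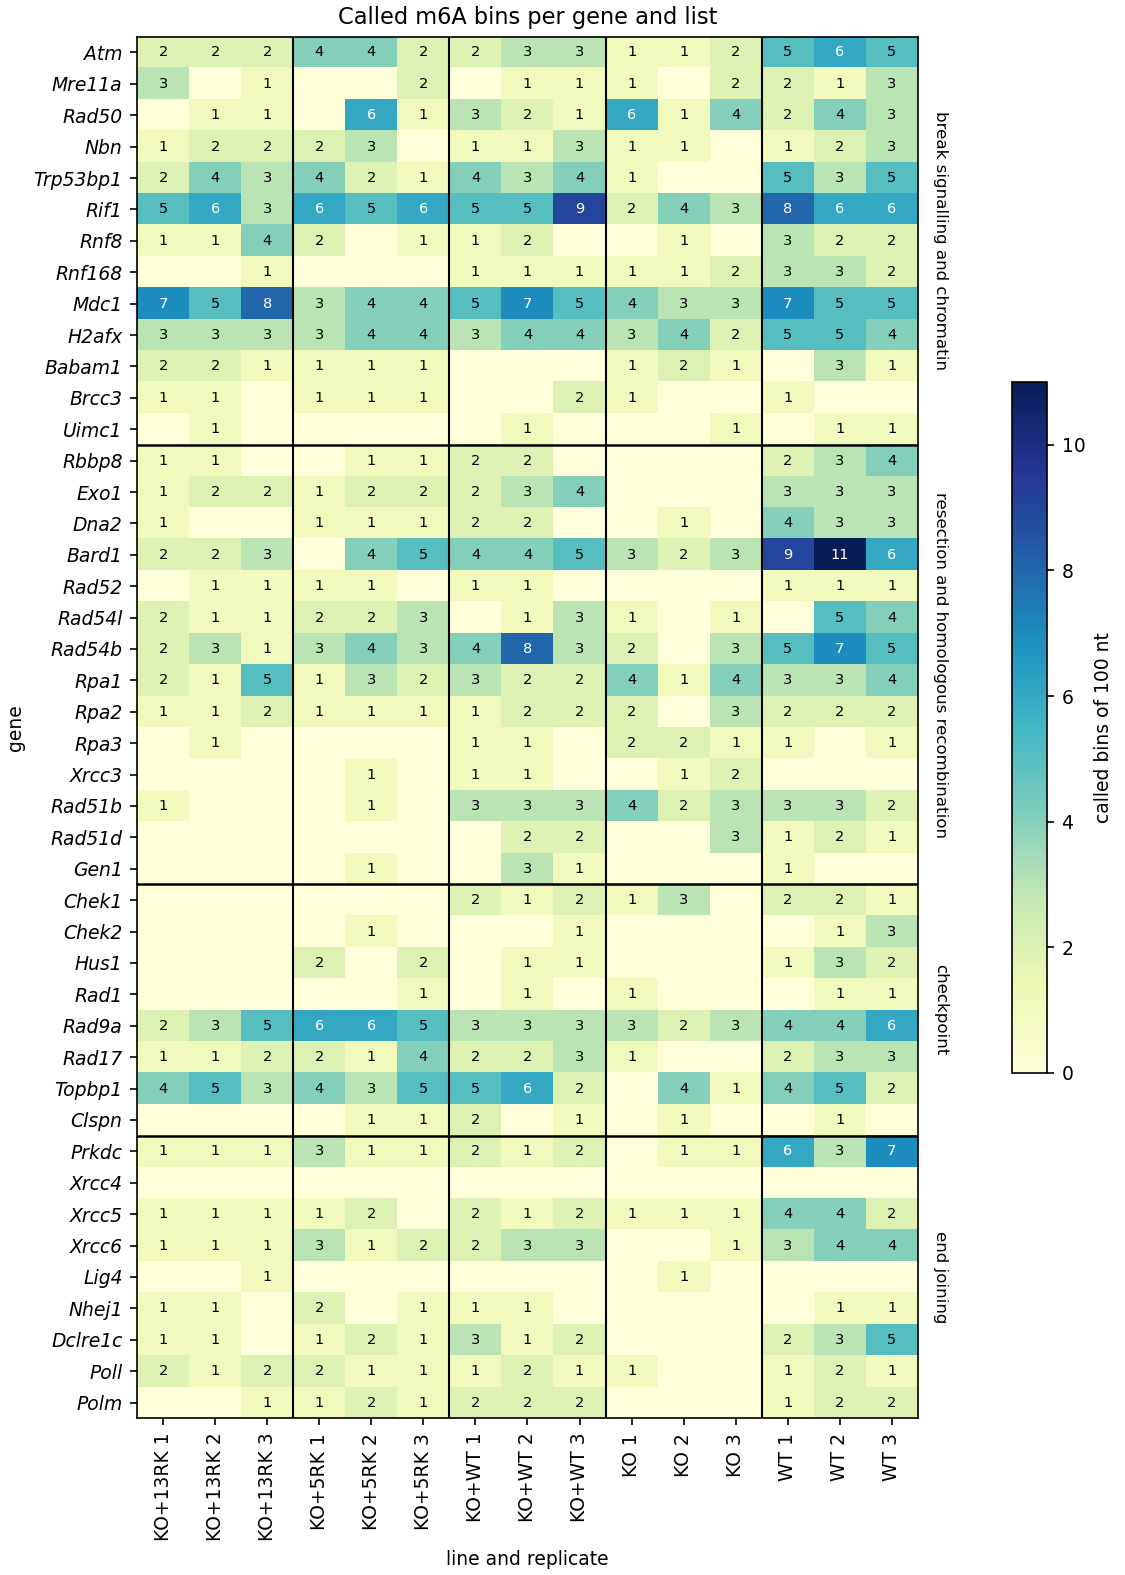
Number of called 100-nt bins for each of the 44 genes (rows, by role) in each of the 15 lists (columns, by line and replicate); empty cells are 0. The KO columns are mostly empty for the end joining genes, Exo1, Rbbp8 and Hus1, while Atm, H2afx, Mdc1, Rif1, Rad9a and Rpa1 were called in every list.

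The knockout was compared with wild-type cells gene by gene, using limma on log2(bins + 1) over all 9852 genes called in at least 3 lists, with Benjamini-Hochberg adjustment. Of the 44 genes, 42 entered this fit, since Xrcc4 and Lig4 were called in too few lists. Fewer bins in KO were found for 15 of the 42 and more bins for 0, where 32.7% of all genes had fewer and 1.37% had more. The share of the repair genes is thus near that of all genes. The median difference was -0.86 for the repair genes and -0.67 for all genes. Without adjustment, 23 repair genes had fewer bins and 0 had more at a p under 0.05. The share of all genes at an unadjusted p was not counted, so this number does not set the repair genes apart.

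Of the 15 genes, 10 passed without any 1 of the 6 lists. The exceptions were Rif1 (lost without KO replicate 1 or WT replicate 1), Hus1 (without WT replicate 2), Rad54b (without KO replicate 2 or WT replicate 2), Mdc1 (passing only without KO replicate 1) and Xrcc5 (passing only without WT replicate 3). On lists of equal length the count dropped to 5, with Atm, Exo1, Trp53bp1 and Xrcc6 lower in KO and Rnf168 higher. In the full lists Rnf168 went the other way, with 1, 1 and 2 bins in KO and 3, 3 and 2 in WT. That difference of -0.67 did not pass (SE 0.29, limma adjusted p = 0.0947). Markers of other cells were read beside this comparison. The 10 fibroblast markers summed to 1 to 4 bins in KO and 24 to 31 in WT, nearly all of them in Fn1, while Col1a2, Col3a1, Postn, Lum and Dcn were at 0 in both lines. The 12 markers of embryonic stem cells summed to 23 to 31 bins in KO and 37 to 43 in WT. Pou5f1 was at 0 in all WT lists and Dppa5a in every list, so calls did not cover every marker of the labelled cell type. The 8 markers of primed or differentiating cells summed to 0 to 1 in both lines. The part of these marker differences in the result was not tested.

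Break signalling genes with fewer bins in KO were Atm, Trp53bp1, Rif1 and Mdc1. Atm, the kinase that opens the response to breaks, had 1, 1 and 2 bins in KO and 5, 6 and 5 in WT. The difference was -1.46 on the log2 scale (SE 0.24, limma adjusted p = 0.000694), and the groups did not overlap. Trp53bp1 encodes 53BP1, which shields ends from resection and favours end joining. It had 1, 0 and 0 bins in KO and 5, 3 and 5 in WT, a difference of -2.06 (SE 0.36, limma adjusted p = 0.00111).

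Rif1, the effector that 53BP1 recruits, had 2, 4 and 3 bins in KO and 8, 6 and 6 in WT, a difference of -0.96 (SE 0.27, limma adjusted p = 0.0159). Mdc1, the adaptor that binds phosphorylated H2AX, had 4, 3 and 3 bins in KO and 7, 5 and 5 in WT. Its difference of -0.62 (SE 0.21, limma adjusted p = 0.0386) turned to 0.97 on lists of equal length (limma adjusted p = 0.271). Rnf8, a ubiquitin ligase that acts after MDC1, had 0, 1 and 0 bins in KO and 3, 2 and 2 in WT, and did not pass (limma adjusted p = 0.0549).

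In resection and recombination, Exo1, Rbbp8, Dna2 and Rad54b had fewer bins in KO. Exo1, a nuclease of long-range resection, had 0, 0 and 0 bins in KO and 3, 3 and 3 in WT. Its difference was -2.0 (SE 0.25, limma adjusted p = 0.000105), and it was also called in every list of the 3 rescue lines. Rbbp8 encodes CtIP, which starts resection with the MRE11 complex. It had 0, 0 and 0 bins in KO and 2, 3 and 4 in WT (difference -1.97, SE 0.45, limma adjusted p = 0.00515).

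Dna2, a helicase and nuclease that extends resection, had 0, 1 and 0 bins in KO and 4, 3 and 3 in WT (difference -1.77, SE 0.44, limma adjusted p = 0.00777). Rad54b, a DNA-dependent motor protein of recombination, had 2, 0 and 3 bins in KO and 5, 7 and 5 in WT (difference -1.53, SE 0.46, limma adjusted p = 0.0216). Several Rad54b bins lie within the span of the gene Fsbp, and reads of the pair cannot be told apart there. Bard1, the partner of BRCA1, had 3, 2 and 3 bins in KO and 9, 11 and 6 in WT. The groups did not overlap, yet Bard1 did not pass (difference -1.38, SE 0.51, limma adjusted p = 0.055).

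Among checkpoint genes, Hus1 and Rad17 had fewer bins in KO. HUS1 is a subunit of the 9-1-1 clamp and RAD17 loads that clamp on DNA. Hus1 had 0, 0 and 0 bins in KO and 1, 3 and 2 in WT (difference -1.53, SE 0.43, limma adjusted p = 0.0148). Rad17 had 1, 0 and 0 bins in KO and 2, 3 and 3 in WT (difference -1.53, SE 0.36, limma adjusted p = 0.00593). Rad9a, another clamp subunit, had 3, 2 and 3 bins in KO and 4, 4 and 6 in WT, and did not pass (limma adjusted p = 0.068). The kinase genes Chek1 and Chek2 did not pass either, with limma adjusted p = 0.49 for Chek1 and 0.0978 for Chek2.

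Of the 7 end joining genes in the fit, 5 had fewer bins in KO, where 32.7% of all genes had fewer. No difference between this role and the others was tested. Xrcc6 and Xrcc5 encode Ku70 and Ku80, the ring that binds a broken end. Xrcc6 had 0, 0 and 1 bins in KO and 3, 4 and 4 in WT (difference -1.88, SE 0.31, limma adjusted p = 0.000684). Xrcc5 had 1, 1 and 1 bins in KO and 4, 4 and 2 in WT (difference -1.08, SE 0.35, limma adjusted p = 0.0318). Most Xrcc6 bins called in WT lie within the span of Desi1, so their gene of origin is uncertain. The Xrcc6 difference thus rests mainly on such bins.

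Prkdc, the DNA-dependent kinase that Ku recruits, had 0, 1 and 1 bins in KO and 6, 3 and 7 in WT (difference -1.94, SE 0.37, limma adjusted p = 0.00175). Dclre1c encodes Artemis, the nuclease that this kinase activates. It had 0, 0 and 0 bins in KO and 2, 3 and 5 in WT (difference -2.06, SE 0.36, limma adjusted p = 0.000997), and some of its bins lie within the span of Suv39h2. Polm, a polymerase that fills gaps at joined ends, had 0, 0 and 0 bins in KO and 1, 2 and 2 in WT (difference -1.39, SE 0.30, limma adjusted p = 0.00371). Poll, the related polymerase lambda, and Nhej1, which encodes XLF, did not pass.

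**Figure D3:**
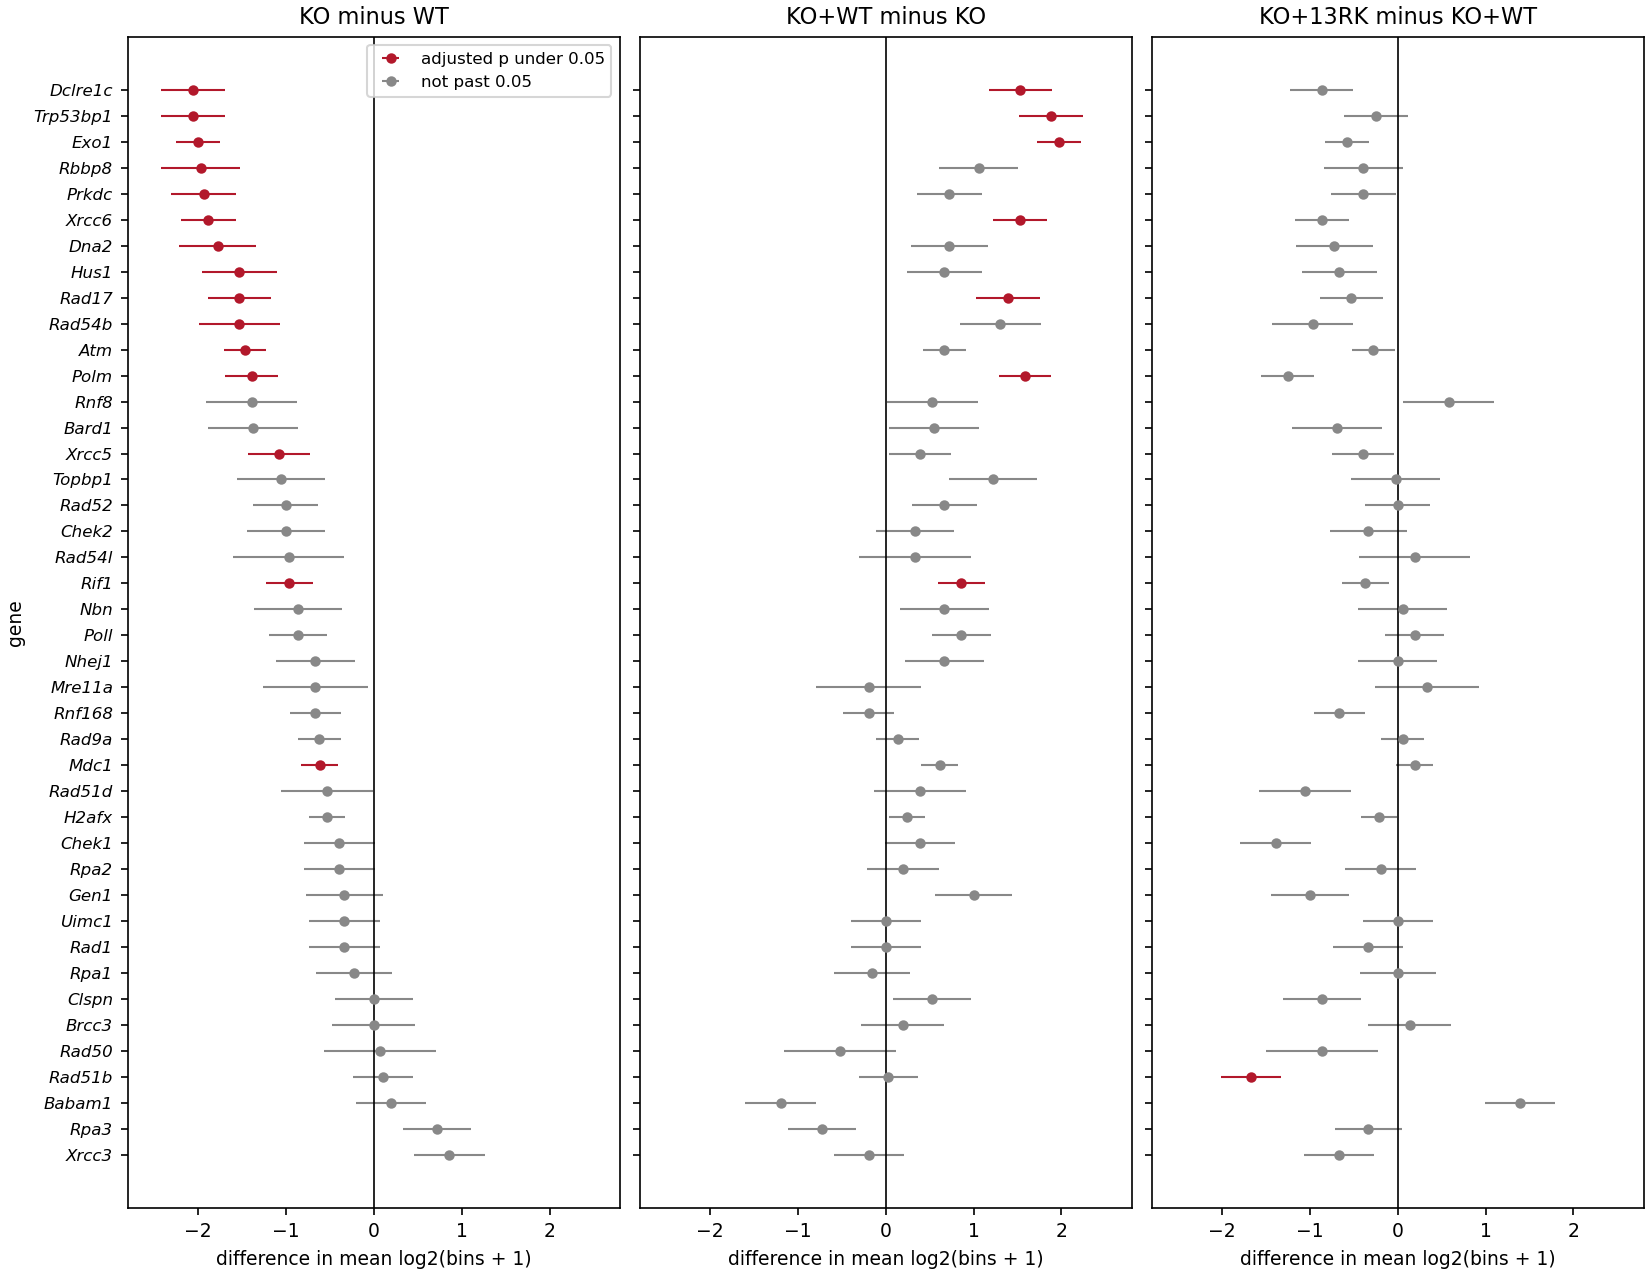
Difference in mean log2(bins + 1) for the 42 tested genes in KO minus WT (left), KO+WT minus KO (middle) and KO+13RK minus KO+WT (right), with 1 SE; red marks a limma adjusted p under 0.05. In the left panel 15 genes are red and all lie below 0, in the middle 7 are red and all lie above 0, and on the right Rad51b alone is red.

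The remaining genes showed no change past the threshold in this comparison. Mre11a, Rad50 and Nbn, the sensor complex, had limma adjusted p-values of 0.43, 1 and 0.208. Babam1, Brcc3 and Uimc1, members of the BRCA1-A complex, lay between -0.33 and 0.20 on the log2 scale. The genes with a difference above 0 in KO were Rad50, Rad51b, Babam1, Rpa3 and Xrcc3, with Xrcc3 highest at 0.86 (SE 0.40, limma adjusted p = 0.113). Rad52, Rad54l, Rad51d, Gen1, Rad1, Topbp1, Clspn, Rnf168 and H2afx also did not pass.

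By the stricter rule of a call in all 3 lists of one line and none of the other, 6 of the 44 repair genes were lost in KO, a share near the 12.9% of all 13765 genes that were lost. The 6 were Rbbp8, Exo1, Rad52, Hus1, Dclre1c and Polm. None was gained, against 0.683% of all genes. Rad52, which anneals single strands, had 0, 0 and 0 bins in KO and 1, 1 and 1 in WT (limma adjusted p = 0.0529). Without the first KO list, 9 genes were lost and 1 was gained, and the share of all genes in that setting was not counted.

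The other genes of these pathways that the list leaves out were read in the same way. Of 33 such symbols, 31 were matched to a gene, and all 31 had a bin in at least 1 list. The limma fit took in 28 of them. Fewer bins in KO than in WT were found for 10 of the 28 and more for 0. Over all genes, 32.7% had fewer and 1.37% had more, so the share of the 28 is near that of all genes. The median difference was -1.05 for these genes and -0.67 for all genes. By the rule of 3 lists against 0, Aplf, Atrip, Eme1, Tipin and Wrn were lost in KO, where 12.9% of all genes were lost. Wrn, a RecQ helicase, had 0, 0 and 0 bins in KO and 7, 6 and 3 in WT, and Atrip, the partner of the kinase ATR, had 0, 0 and 0 in KO and 2, 3 and 1 in WT.

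Regions were then compared between the 3 KO lists and the 12 others by Fisher's exact test. Regions are bins merged over all lists, and 140 in the repair genes entered the family of 23941. Called less often in KO were 10 regions (7.14%) in 9 genes, and called more often were 2 (1.43%), where 4.69% of all regions were called less often and 1.04% more often. Each of the 12 regions had the smallest possible p of 0.0022 and a Benjamini-Hochberg adjusted p of 0.0384 by Fisher's exact test. Without adjustment, 26 repair regions were called less often and 5 more often at a p under 0.05, and the share of all regions at that threshold was not counted.

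The 10 regions were called in 12 of 12 lists with METTL14 and in 0 of 3 KO lists. In break signalling they were chr9:53439650-53439749 in Atm, chr2:121215682-121215781 in Trp53bp1, chr2:52112338-52112437 and chr2:52112638-52112737 in Rif1, chr17:29626977-29627376 in Rnf8 and chr9:44335995-44336094 in H2afx. In recombination they were chr1:175900982-175901081 in Exo1, chr4:11583823-11584222 in Rad54b and chr4:132778033-132778132 in Rpa2. In end joining the region was chr15:81994236-81994335 in Xrcc6. All coordinates are those of the deposited lists, in the build GRCm38 named by the submitters. The Rnf8 region includes bins listed for the overlapping gene Gm28043. Rnf8 itself had no bin in KO+WT replicate 3 or KO+5RK replicate 2, so its 12 of 12 holds only with those bins. The count of genes with such a region includes Rnf8 on this basis. The Rad54b and Xrcc6 regions lie in the spans of Fsbp and Desi1.

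The 2 regions called in 3 of 3 KO lists and 0 of 12 others were chr17:35850816-35850915 in Mdc1 and chr16:32285460-32285559 in Rnf168, a ubiquitin ligase that marks chromatin for 53BP1. Leaving out any 1 of the KO lists gave 0 regions, in a test whose smallest p is then higher. With bins limited to enrichment values no lower than the median the count was also 0.

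The position of the bins within genes differed between KO and the other lines. Atm bins in the lines with METTL14 lay mainly 2128 to 2728 nt before the gene end, and WT had a further bin 20479 nt from the start. The bin 2528 nt before the end was called in 3 of 3 KO+13RK lists, 3 of 3 KO+5RK lists, 3 of 3 KO+WT lists, 0 of 3 KO lists and 3 of 3 WT lists. The Atm bins called in KO lay elsewhere, 5079 and 88679 nt from the gene start, each in 2 of 3 KO lists and in no other list. Atm thus had called bins in every line, but none of them was shared between KO and WT.

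Rad50, the coiled-coil subunit of the sensor complex, also had its bins at different places. It had 0, 1 and 1 bins in KO+13RK, 0, 6 and 1 in KO+5RK, 3, 2 and 1 in KO+WT, 6, 1 and 4 in KO, and 2, 4 and 3 in WT. Its bins 701 and 801 nt before the gene end were called in 3 of 3 WT lists and 0 of 3 KO lists. The bin 32500 nt from the gene start was called in 3 of 3 KO lists, 1 KO+5RK list and no WT list. The limma difference of 0.07 (SE 0.64, adjusted p = 1) therefore compares similar numbers of bins at different places.

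Rif1 and Mdc1 each held a block of bins that most lists with METTL14 shared, and KO calls mostly outside it. In Rif1 the block lay 39223 to 39823 nt from the gene start, and the bins at 5923 and 34823 nt were called in 3 of 3 KO lists and 0 of 3 WT lists. The first of these was also called in 1 KO+WT list, and the second in 1 KO+13RK, 2 KO+5RK and 1 KO+WT list. In Mdc1 the block lay 6021 to 6521 nt from the start, where only the bin at 6421 nt was called in KO, in 2 of 3 lists. Mdc1 bins at 9221 and 9321 nt were called in 3 of 3 KO lists, and the second of them in no other list.

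**Figure D4:**
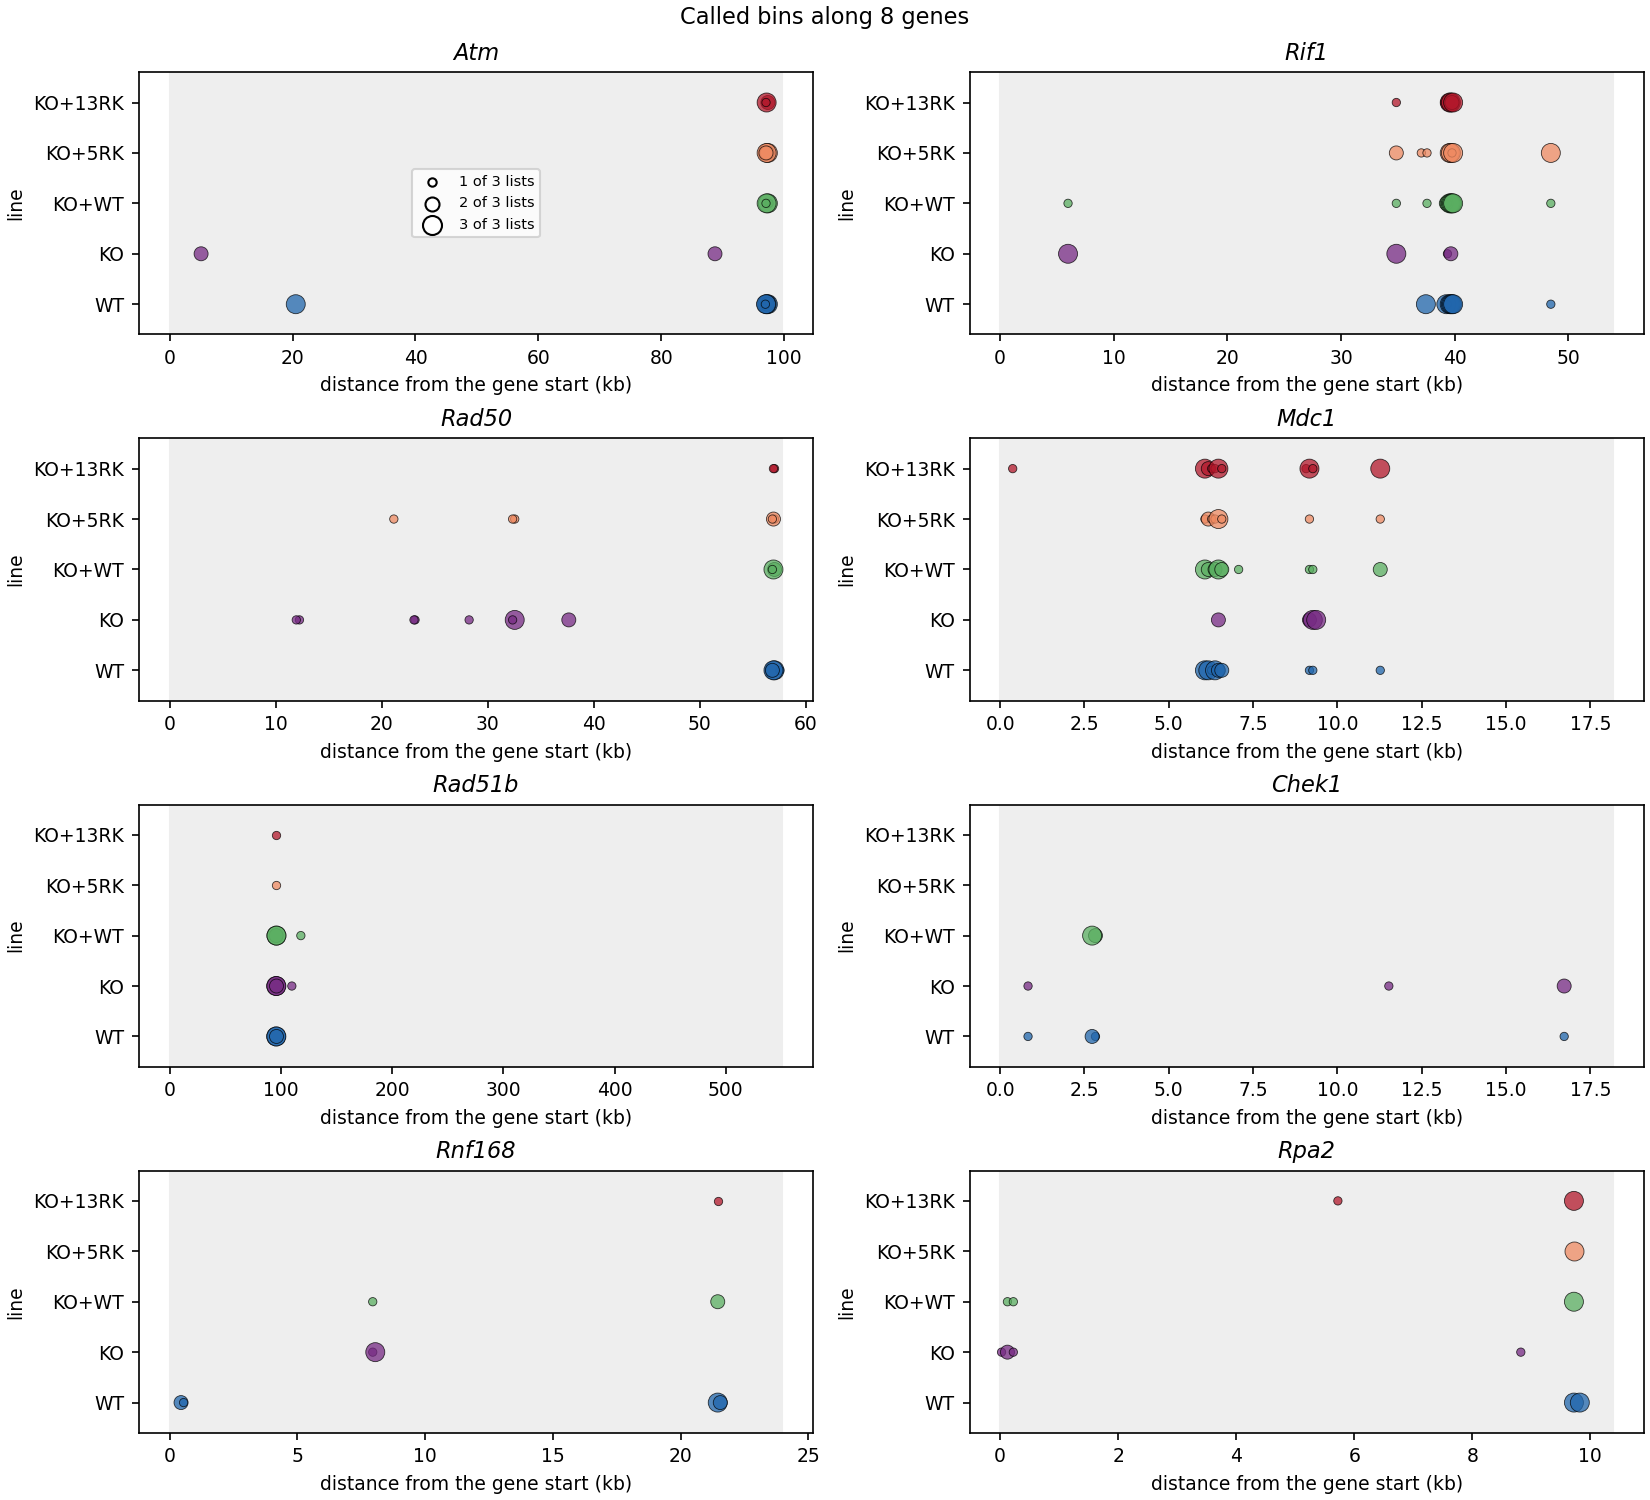
Position of each called bin, in kb from the gene start, along Atm, Rif1, Rad50, Mdc1, Rad51b, Chek1, Rnf168 and Rpa2, with 1 row per line; the circle grows with the number of lists, 1 to 3, and grey marks the gene's span. In Atm and Rad50 the KO circles lie apart from those of the other lines at the gene end, in Rpa2 they lie mostly at the gene start, and Chek1 has no circle in either mutant line.

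H2afx, which encodes the histone variant H2AX, was the one gene of the 44 with the same bins called in all 15 lists. These were 2 neighbouring bins, 1080 and 1180 nt from the gene start. The next bin downstream, at 1280 nt, was the one called in all 12 lists with METTL14 and in 0 of 3 KO lists. Adjacent stretches of 1 gene thus differed. H2afx as a whole had 3, 4 and 2 bins in KO and 5, 5 and 4 in WT, and its difference of -0.53 did not pass (SE 0.20, limma adjusted p = 0.0627).

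Near the gene start, within 500 nt, lay 3.43% ± 2.97 of the repair genes' bins in KO+13RK, 1.49% ± 0.11 in KO+5RK, 3.53% ± 1.76 in KO+WT, 13.7% ± 2.02 in KO and 3.17% ± 0.33 in WT (SD, n = 3 each). The KO share rests on 5 to 8 bins a list. Over all genes the shares were 7.17% in KO+13RK, 6.27% in KO+5RK, 5.76% in KO+WT, 17.7% in KO and 4.91% in WT. Within 2000 nt of the gene end lay 21.5% ± 2.67 in KO+13RK, 30.7% ± 0.88 in KO+5RK, 25.4% ± 3.15 in KO+WT, 11% ± 2.60 in KO and 30.02% ± 2.45 in WT. For all genes these were 31.8% in KO+13RK, 34.4% in KO+5RK, 31.9% in KO+WT, 17.3% in KO and 34.5% in WT. The lower share near the end and the higher share near the start in KO were thus also seen over all genes.

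**Figure D5:**
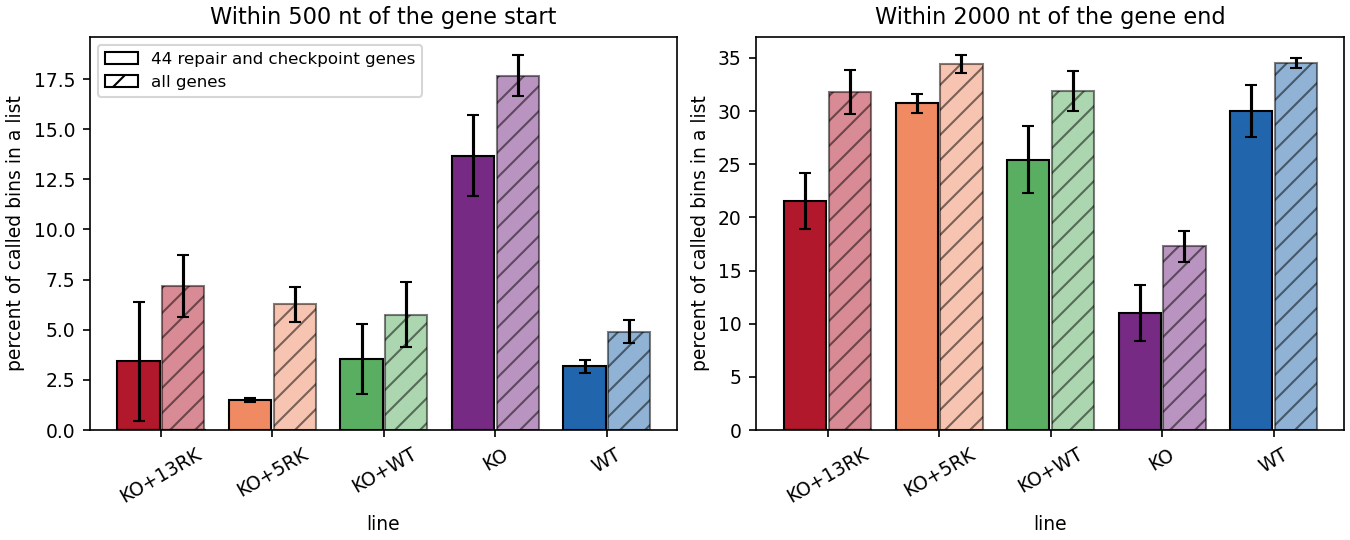
Share of called bins within 500 nt of the gene start (left) and within 2000 nt of the gene end (right) for the 44 genes (plain bars) and for all genes (hatched bars), mean and SD of 3 lists per line. KO stands highest near the start, at 13.7% for the repair genes, and lowest near the end, at 11%, in both gene sets.

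The start bins of the 3 RPA genes, whose sequences stand above, make up part of this share. In Rpa3 the bin 5 nt from the start was called in 1 of 3 KO+13RK lists, 0 of 3 KO+5RK lists, 2 of 3 KO+WT lists, 3 of 3 KO lists and 1 of 3 WT lists. In Rpa2 the bin 73 nt from the start was called in 0 of 3 lists of either mutant line, 1 KO+WT list, 2 KO lists and 0 WT lists. The bin that covers the first bases of Rpa2 was called in 1 KO list and nowhere else. In Rpa1 the bin 88 nt from the start of the span, which holds the capitals above, was called in 1 KO+WT, 1 KO and 1 WT list. The next one, at 188 nt, was called in 2 KO+13RK, 1 KO+WT, 2 KO and 2 WT lists.

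Rpa1 and Rpa2 also had bins near their ends that KO lacked. The Rpa2 bin 614 nt before the end was called in all 12 lists with METTL14 and in 0 of 3 KO lists. The Rpa1 bin 808 nt before the end was called in 1 KO+13RK, 3 KO+5RK, 3 KO+WT, 0 KO and 3 WT lists. Counted per gene, no RPA gene passed between KO and WT, with limma adjusted p = 0.726 for Rpa1, 0.493 for Rpa2 and 0.166 for Rpa3. Other thresholds changed this, as Rpa3 had more bins in KO at a q of 0.005 or less and with enrichment values no lower than the median, and Rpa2 had fewer in KO at the stricter q. The RPA start regions that were tested did not pass between KO and the 12 other lists (Fisher's exact test, adjusted p 0.323 to 0.815). The Rad9a bin 74 nt from the start was called in 2 KO+13RK, 3 KO+5RK, 2 KO+WT, 3 KO and 2 WT lists.

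In the repair genes 66 bins were called in 3 of 3 WT lists, and 54 of them (81.8%) were absent from every KO list, against 80.2% of such bins over all genes. The 54 lay in 26 genes, with 5 in Rif1, 4 each in Atm and Rad54b and 3 each in Bard1, Mdc1, Rad9a and Trp53bp1. Of the 15 bins called in all 3 KO lists, 6 (40.0%) were called in no WT list, against 26.2% over all genes. The order was the other way for bins called in 2 or 3 KO lists, of which 36.8% were called in no WT list, against 39.7% over all genes. Agreement between lists of 1 line was limited, with a Jaccard index over all bins of 0.261 to 0.450 in 15 pairs.

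Putting METTL14 back was read first against the knockout. KO+WT had more bins than KO for 7 of the 42 genes and fewer for 0, where 15% of all genes had more and 1.14% had fewer. The median difference was 0.54 for the repair genes and 0.33 for all genes. The 7 were Exo1, Trp53bp1, Rif1, Rad17, Xrcc6, Dclre1c and Polm, all of them among the 15 that were lower in KO than in WT. Without 1 list, the call was lost for Rif1 in all fits but that without KO replicate 2, and for Rad17 without KO replicate 2 or 3 or KO+WT replicate 3. These comparisons share the KO lists, so the overlap is no independent evidence.

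Exo1 had 2, 3 and 4 bins in KO+WT and 0, 0 and 0 in KO (difference 1.97, SE 0.25, limma adjusted p = 0.000232). Trp53bp1 had 4, 3 and 4 bins in KO+WT and 1, 0 and 0 in KO (difference 1.88, SE 0.36, limma adjusted p = 0.00389). Neither gene's groups overlapped. Dclre1c had 3, 1 and 2 bins in KO+WT and none in KO, and Polm had 2, 2 and 2 in KO+WT and none in KO. Both met the rule of 3 lists against 0, as did Exo1, where 7.48% of all genes were gained.

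Babam1 went the other way by that rule, where 0.792% of all genes did. This gene for a scaffold subunit of the BRCA1-A complex had 0, 0 and 0 bins in KO+WT and 1, 2 and 1 in KO, and did not pass in limma (difference -1.20, SE 0.40, adjusted p = 0.0627). Between KO+WT and WT no repair gene passed (limma), where 3.59% of all genes had fewer bins in KO+WT and 0.223% had more. Without adjustment 5 repair genes had fewer bins in KO+WT and 0 had more, with no share of all genes counted beside it. At a q of 0.005 or less, Dna2, Rad52 and Dclre1c had fewer bins in KO+WT than in WT.

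KO+5RK had more bins than KO for 7 of the 42 genes, where 9.15% of all genes had more, and fewer for 3, where 1.28% had fewer. More bins in KO+5RK were found for Atm, Exo1, Trp53bp1, Rad9a, Rad17, Xrcc6 and Polm. Rad9a had 6, 6 and 5 bins in KO+5RK and 3, 2 and 3 in KO (difference 0.87, SE 0.24, limma adjusted p = 0.0379). Its bin 203 nt before the gene end, called in 3 of 3 KO+5RK lists and 0 of 3 KO lists, overlaps the span of Ppp1ca. The Rad9a call was lost without any 1 of the 6 lists (limma adjusted p 0.0522 to 0.126), at a q of 0.005 or less (0.286), with enrichment values no lower than the median (0.097) and on lists of equal length (0.597). Fewer bins in KO+5RK were found for Rnf168, Rpa3 and Rad51b. Leaving out any 1 list of these lines reduced the count of 10 to between 4 and 6. Exo1 and Rad51b passed in each of these fits. Atm passed only without KO replicate 3 or KO+5RK replicate 3, and Trp53bp1 only without KO replicate 1 or KO+5RK replicate 3. Rad17 passed only without KO replicate 1 or KO+5RK replicate 2, and Xrcc6 only without KO replicate 3 or KO+5RK replicate 2. Polm passed only without KO+5RK replicate 1 or 3. Some of the calls were new, in Chek1, Hus1, Poll or Topbp1.

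Rnf168 had 0, 0 and 0 bins in KO+5RK and 1, 1 and 2 in KO (difference -1.20, SE 0.29, limma adjusted p = 0.019). Rpa3 had 0, 0 and 0 bins in KO+5RK and 2, 2 and 1 in KO (difference -1.39, SE 0.39, limma adjusted p = 0.0358). Neither gene's groups overlapped. The Rpa3 call was lost without KO replicate 1 (0.108) or 2 (0.105) and without KO+5RK replicate 1 (0.0834), 2 (0.0851) or 3 (0.0741). Rpa3 also did not pass with the replicate block or on lists of equal length. The Rnf168 call was lost without KO replicate 3 (0.0806), at a q of 0.005 or less (0.326) and with enrichment values no lower than the median.

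KO+13RK had more bins than KO for 3 of the 42 genes, where 6.27% of all genes had more, and fewer for 1, where 1.17% had fewer. Exo1 had 1, 2 and 2 bins in KO+13RK and none in KO (difference 1.39, SE 0.25, limma adjusted p = 0.0046). Trp53bp1 had 2, 4 and 3 bins in KO+13RK and 1, 0 and 0 in KO (difference 1.64, SE 0.36, limma adjusted p = 0.0149). Mdc1 had 7, 5 and 8 bins in KO+13RK and 4, 3 and 3 in KO (difference 0.81, limma adjusted p = 0.034), which turned to -0.44 on lists of equal length (limma adjusted p = 0.657). The Mdc1 call was also lost in 4 of the 6 fits that left out 1 list, and that of Trp53bp1 without KO replicate 2 (0.0554) or 3 (0.0555) or KO+13RK replicate 2 (0.0546). The gene with fewer bins in KO+13RK was Rad51b. With enrichment values no lower than the median, no repair gene had more bins in KO+13RK than in KO, and Rpa3 and Rad51b had fewer.

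Rad51b acts in homologous recombination, after resection. It had 1, 0 and 0 bins in KO+13RK, 0, 1 and 0 in KO+5RK, 3, 3 and 3 in KO+WT, 4, 2 and 3 in KO, and 3, 3 and 2 in WT. Both mutant lines lay below KO+WT, KO and WT with no overlap. KO and WT overlapped (difference 0.11, SE 0.34, limma adjusted p = 0.857). The bins lay mostly together, 95770 to 96070 nt from the start of a span of 550979 nt, at chr12:79393052-79393451. Of the others, 1 lay at 109870 nt in 1 KO list and 1 at 117970 nt in 1 KO+WT list.

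Between KO+13RK and KO+WT, Rad51b was the gene that passed, with a difference of -1.67 (SE 0.34, limma adjusted p = 0.0353), where 1.12% of all genes had fewer bins in KO+13RK and 0.0609% had more. Without adjustment 8 repair genes had fewer bins in KO+13RK than in KO+WT and 1 had more. The unadjusted share of all genes was not counted. The call for Rad51b was lost at a q of 0.005 or less (limma adjusted p = 0.22), with enrichment values no lower than the median (0.0871) and on lists of equal length (0.0891). It was also lost without KO+WT replicate 1 (0.0878), 2 (0.109) or 3 (0.0823) and without KO+13RK replicate 2 (0.108) or 3 (0.0758).

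Between KO+5RK and KO+WT no repair gene passed (limma), where 0.213% of all genes had fewer bins in KO+5RK and 0.0508% had more. Without adjustment 5 repair genes had fewer bins in KO+5RK and 2 had more, and again the unadjusted share of all genes was not counted. Rad51b had the same difference of -1.67 there (SE 0.34, limma adjusted p = 0.0852) and passed only without KO+5RK replicate 2. Both mutant lines were set against the same KO+WT lists, so these comparisons are not independent.

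Chek1, the checkpoint kinase that slows the cycle when forks stall, had 0, 0 and 0 bins in KO+13RK, 0, 0 and 0 in KO+5RK, 2, 1 and 2 in KO+WT, 1, 3 and 0 in KO, and 2, 2 and 1 in WT. It met the rule of 3 lists against 0 in both mutant lines against KO+WT. That rule was met by loss in 2.09% of all genes for KO+13RK and 0.814% for KO+5RK. Chek1 did not pass in limma, with an adjusted p = 0.12 in KO+13RK and 0.242 in KO+5RK, each against KO+WT. Its bin 2676 nt from the start was called in 0 of 3 lists of either mutant line, 3 of 3 KO+WT lists, 0 of 3 KO lists and 2 of 3 WT lists.

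Rnf168 was lost in KO+5RK by the same rule, with 0, 0 and 0 bins against 1, 1 and 1 in KO+WT. It had 0, 0 and 1 bins in KO+13RK. Babam1 was gained in both mutant lines, with 2, 2 and 1 bins in KO+13RK and 1, 1 and 1 in KO+5RK against 0, 0 and 0 in KO+WT, where 0.276% of all genes were gained in KO+13RK and 0.392% in KO+5RK. The Babam1 bin 1597 nt from the start carried this, being called in 3 of 3 lists of both mutant lines, 0 KO+WT, 2 KO and 2 WT lists.

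Between the mutants themselves no repair gene passed (limma, KO+13RK against KO+5RK), where 0.193% of all genes had fewer bins in KO+13RK and 0.0203% had more. Without adjustment 3 repair genes had fewer bins in KO+13RK and 1 had more, with no unadjusted share of all genes counted. Polm had 0, 0 and 1 bins in KO+13RK and 1, 2 and 1 in KO+5RK (difference -0.86, SE 0.30, limma adjusted p = 0.426). Rad9a had 2, 3 and 5 bins in KO+13RK and 6, 6 and 5 in KO+5RK (difference -0.68, SE 0.24, limma adjusted p = 0.447). A p that misses the threshold does not show that the mutants act alike.

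The 54 bins that every WT list called and every KO list lacked were followed through the rescue lines. Of them 19, 26 and 29 were called in the 3 KO+13RK lists, 31, 31 and 29 in KO+5RK, and 38, 37 and 33 in KO+WT. That is 45.7% ± 9.50 in KO+13RK, 56.2% ± 2.14 in KO+5RK and 66.7% ± 4.90 in KO+WT (SD, n = 3 each). Of the 9089 such bins over all genes, 36.9% were called in KO+13RK, 48.9% in KO+5RK and 62.3% in KO+WT. Of the 54, 9 were called in all 9 rescue lists, as were 1180 of the 9089 over all genes. In none of the rescue lists were 3 of the 54 called. None of the 54 was called in 3 of 3 KO+WT lists and absent from all lists of both mutants. Bins of these last kinds were not counted over all genes, so whether the repair genes differ there is unknown.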

How the data were processed

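The authors deposited 15 peak lists, 1 for each m6A immunoprecipitation replicate, without headers. Each row is a 100-nt bin of 1 Ensembl gene and holds the authors' enrichment score, p-value and q-value. The deposited enrichment score ran from 0.31 to 5.82 on a scale not given in the sources used here, so it served only to filter bins within a list. The highest deposited q-value was 0.04999. Kallisto 0.43.0, STAR 2.5.3a and the build GRCm38 appear in the submitters' processing notes, with no role. For the peak caller, a name was not given in the labels or processing notes used here, though the lists carry clam in their names.

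Bins per gene and list were counted for all 13765 genes. Differences were tested with limma 3.58.1 (R 4.3.3, trend = TRUE) on log2(bins + 1), all 15 lists in 1 fit, genes called in at least 3 lists, Benjamini-Hochberg adjustment over 9852 genes and a threshold of 0.05. Calls replaced counts of reads, so depth and its precision are unknown. A gene was lost or gained where 3 lists of one line and 0 of the other called it. Regions, merged from overlapping bins on 1 strand, were compared by two-sided Fisher's exact test (scipy 1.17.1). Positions used RefSeq gene spans of GRCm38.p6 matched by symbol, which placed 90.5% of bins. The fit was tested on simulated data.

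The 44 genes and the other lists were chosen with earlier results of these data known. Described in full were genes past a threshold, lost, gained or called in all 15 lists. Values of other members, such as Bard1, Rnf8, Rad50 and Rpa3, are shown as examples chosen after they were seen. Alternatives were a stricter q of 0.005, an enrichment score at or above the median of 1.36, lists of equal length, another pseudocount (0.5), other filters, no trend, a replicate block and leaving out each list. Expression in the input libraries, transcript parts and motifs within bins were not analysed here.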

Additional observations from a re-analysis of the deposited data

How the results depend on the processing

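Numbers of called bins changed with the threshold and the length of the lists. At a q of 0.005 or less, the bins per list in the repair genes numbered 25 in KO+13RK, 33.7 in KO+5RK, 42.7 in KO+WT, 15.3 in KO and 73 in WT. With enrichment values no lower than the median they numbered 20.3 in KO+13RK, 31 in KO+5RK, 38 in KO+WT, 21 in KO and 63 in WT. On lists of equal length they numbered 36.7 in KO+13RK, 37.7 in KO+5RK, 38.3 in KO+WT, 38.3 in KO and 39.3 in WT. Genes with a bin numbered 16.3 in KO+13RK, 19 in KO+5RK, 21.7 in KO+WT, 11.3 in KO and 31.7 in WT at the stricter q. They numbered 15 in KO+13RK, 19.7 in KO+5RK, 23 in KO+WT, 14 in KO and 30 in WT by enrichment, and 23.7 in KO+13RK, 22.3 in KO+5RK, 20.3 in KO+WT, 21.3 in KO and 21.3 in WT at equal length. Near the gene start the share of bins was 22.8%, 18.5% and 10.2% in KO, 2.99%, 3.23% and 1.79% in KO+5RK, and 1.85%, 4.18% and 0.855% in WT under these 3 settings, and 6.01% in KO+WT by enrichment. Near the gene end it was 31.7%, 32.4% and 28.5% in KO+5RK under the 3 settings, 26.7% in KO+13RK and 17.5% in KO at the stricter q, and 24.6% in WT at equal length. Limma calls between KO and WT numbered 15, against 5 at equal length, where Mdc1 turned to 0.97. KO+WT against KO gave 4 by enrichment (7 as reported). KO+WT against WT gave 3 at the stricter q (0 as reported). KO+5RK against KO gave 4 at the stricter q, 3 by enrichment and 4 at equal length (10 as reported). KO+13RK against KO gave 2 at the stricter q (1 more, 1 fewer) and 2 by enrichment (0 more, 2 fewer), against 4 as reported (3 more, 1 fewer), and Mdc1 turned to -0.44 at equal length. KO+13RK against KO+WT gave 0 at the stricter q, by enrichment, at equal length, with genes called in at least 1 list and with the replicate block (1 as reported). Genes lost or gained in KO against WT numbered 14 at the stricter q, 10 by enrichment and 2 at equal length (6 as reported). In KO+WT against KO they numbered 7 at the stricter q, 2 at equal length and 9 with calls in at least 2 lists (4 as reported). In KO+5RK against KO+WT they numbered 0 at the stricter q, 0 at equal length and 5 with at least 2 lists (3 as reported). In KO+13RK against KO+WT they numbered 0 at the stricter q, 0 by enrichment, 1 at equal length and 7 with at least 2 lists (2 as reported). Regions called less or more often in KO numbered 4 at the stricter q, 0 by enrichment and 0 with no filter on regions (12 as reported). The cause of these changes was not tested. Shares of all genes or regions were counted for the main setting only. The numbers under other settings, or without 1 list, therefore do not set the repair genes apart. Leaving out 1 list gave 11 to 15 calls in KO against WT, 6 to 7 in KO+WT against KO, 4 to 6 in KO+5RK against KO, 3 to 5 in KO+13RK against KO, 0 to 1 in KO+13RK against KO+WT (Polm in place of Rad51b without KO+13RK replicate 3), and 0 to 1 in KO+5RK against KO+WT. Genes lost or gained ranged from 6 to 10 in KO against WT (10 without KO replicate 1), 4 to 7 in KO+WT against KO (7 without KO replicate 1 or KO+WT replicate 3), 3 to 5 in KO+5RK against KO+WT (5 without KO+WT replicate 3) and 2 to 5 in KO+13RK against KO+WT (5 without KO+WT replicate 1, 4 without KO+13RK replicate 3). Regions numbered 0 without any 1 KO list. The calls showed no pairing of the lists by replicate number. Deviations of lists with the same number in other lines correlated at -0.037 to 0.0154 (30 pairs), and 3 of 15 lists correlated best with their own number. Lists with other numbers correlated at -0.027 to 0.0306 (60 pairs). Called bins alone cannot decide whether lists with the same number were made together, and the labels do not say. With the replicate block 14 genes passed in KO against WT, and of 37 single-gene calls 31 stayed past the threshold and 6 did not. Depth per list is unknown, so a call missing from a short list may reflect the length of the list.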
